A study of Mus musculus with 15 samples.

Results

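The genes that encode the constitutive proteasome were examined in mice with a tamoxifen-induced deletion of Atg7 in microglia. The product of Atg7 is an E1-like enzyme without which the conjugation reactions of autophagosome formation stop. The question was whether RNA of the proteasome, the main route of protein breakdown beside autophagy, stood higher in mice with the Atg7 deletion. Members were chosen by name, as every gene whose symbol is Psma, Psmb, Psmc or Psmd followed by a number. The interferon-inducible catalytic subunits Psmb8, Psmb9 and Psmb10 and the pseudogenes were left out. The rule gave 36 of the 54532 genes in the bulk table and the same 36 of the 32285 features in the single-cell matrices. They comprised 8 genes of the alpha ring, 8 genes of the beta ring, 6 ATPases and 3 non-ATPase subunits of the regulatory base, 8 subunits of the regulatory lid and 3 assembly chaperones of the base. Psmc3ip, a recombination cofactor that shares only the first letters, was not counted as a member.

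The proteasome destroys proteins that carry ubiquitin chains. Its 20S core is a barrel of stacked rings, in which the outer alpha rings gate the entry and the inner beta rings hold the catalytic sites. The 19S particle caps the barrel, where the lid and receptors of the base take up and deubiquitinate substrates and the ATPases of the base unfold them. When proteasome activity falls, the transcription factor NRF1, encoded by Nfe2l1, is processed to its active form and raises the subunit genes together through antioxidant response elements in their promoters. In microglia and other antigen-presenting cells, interferon exchanges the catalytic subunits for those of the immunoproteasome.

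All mice were C57BL/6, carried floxed Atg7 alleles (ATG7FF), were given 1.5 mg of tamoxifen when 2 months old, and gave tissue at the age of 8 months, 6 months later. The deleting recombinase was Cx3cr1CreER, an inducible Cre inserted into the Cx3cr1 gene and so active in microglia and in other cells that express Cx3cr1. Single-cell RNA-seq covered CD11b-high, CD45-low microglia without amyloid transgenes, as 1 library pooled from 4 forebrains with Cx3cr1CreER (cKO) and 1 library pooled from 3 forebrains without it (control). Bulk RNA-seq covered forebrains with the 5xFAD transgenes in addition, which express human familial Alzheimer's disease mutations and drive amyloid plaque formation, in 7 libraries with Cx3cr1CreER (KOFAD) and 6 libraries without it (WTFAD). Every cKO and KOFAD library thus carried Cx3cr1CreER, and no control or WTFAD library did. Loss of Atg7 cannot be told apart from the inserted Cx3cr1 allele or from Cre activity in these comparisons. Whether every bulk library stands for its own mouse is not stated in the labels, and the p-values therefore refer to the spread among these libraries.

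Bulk totals ran from 16658707 to 22355512 counts per library. KOFAD 5 stood apart from the other bulk libraries. Across 16939 genes, its deviation from the mean of all bulk libraries had a Spearman correlation of 0.517 with GC content. With exonic length the correlation was -0.384. For GC content the other libraries ran from -0.238 to 0.238, except WTFAD 5 at -0.483. Genes are not independent replicates, so these coefficients describe the libraries only. The cKO library held 40701821 UMIs over 9840 barcodes, with a median of 4306, and the control library 9314315 UMIs over 6633 barcodes, with a median of 1368. A total of 22 barcodes occurred in both. In counts scaled to a common library total (CPM), Atg7 itself stood at 24.3 ± 1.32 CPM in KOFAD and 24.3 ± 2.09 CPM in WTFAD (SD, n = 7 and 6), and at 17.3 CPM in the cKO library and 15.8 CPM in the control library. Gene-level counts and 3' tags include sequence outside the floxed stretch, so these values do not check the deletion.

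The promoters of the members were searched for the core of the antioxidant response element, because this is the element through which NRF1 acts. The motif was TGACNNNGC, on both strands, in the 250 bases upstream of the RefSeq start sites on GRCm38.p6. A window was at hand for 29 of the 36 genes, and 5 of them (17.2%) held the motif, against 3112 of 27025 genes with a window (11.5%). A match is a description of the letters and not a binding site. The stretches are printed to show where the motif lies in these 5 genes, with the motif in capitals, read 5′ to 3′ on the strand that holds it.
Psmb5: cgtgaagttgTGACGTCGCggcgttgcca
Psmb6: ctaaagagagTGACGGAGC
Psmc6: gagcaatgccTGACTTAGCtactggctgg
Psmd12: ggggcaaatgTGACACAGCaga
Psmd9: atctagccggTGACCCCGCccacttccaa
The Psmb5 motif lay on the strand of the gene, the minus strand, at chr14:54618034-54618042. Those of Psmb6 (chr11:70525348-70525356) and Psmd9 (chr5:123228159-123228167) lay on the plus strand, which is also the strand of these genes. Those of Psmc6 (chr14:45329597-45329605) and Psmd12 (chr11:107479281-107479289) lay on the minus strand, opposite to the gene. Psmb5 and Psmb6 encode catalytic subunits, whereas Psmc6 is an ATPase, Psmd12 a lid subunit and Psmd9 a chaperone, so the 5 genes fell into 4 of the structural classes. The motif lay 9 bases upstream of the start in Psmb6, 31 in Psmd9 and 47 in Psmb5, and far upstream, at 227 bases in Psmc6 and 247 in Psmd12.

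In 5xFAD forebrain, no constitutive proteasome gene was called changed in KOFAD. The count filter was passed by 34 of the 36 members. The 2 others were Psma8, a testis-specific alpha subunit with 76 counts over all 13 libraries, and Psmb11, a thymus-specific beta subunit with 56. Of the 34 tested members, 0 passed edgeR's quasi-likelihood test at a Benjamini-Hochberg adjusted p of 0.05, against 0.330% of all 16956 genes tested, of which 9 (0.0531%) were higher and 47 (0.277%) lower in KOFAD. At an unadjusted p under 0.05 the members again numbered 0, against 7.71% of all genes, and DESeq2 called 0 at either level. For no member did the ranges of KOFAD and WTFAD fail to overlap, against 0.442% of all genes tested.

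The intervals of the bulk changes were narrow. Of the 34 members, 21 had a log2 change (KOFAD minus WTFAD) above 0 and 13 below. Over all 16956 genes tested, 8575 lay above 0 and 8381 below. The median was 0.0016 over all genes tested and 0.014 for the members. The changes ran from -0.08 for Psmc6 to 0.09 for Psmd4, whose adjusted p of 0.691 was the smallest among members by edgeR's quasi-likelihood test. All 34 of the 95% intervals contained 0. Their outermost bounds were -0.17 (Psmd10) and 0.26 (Psmd9), a decrease of 11.3% and an increase of 19.5%, so larger changes of RNA in whole forebrain lay outside every member's interval. Without KOFAD 5, 16 of 34 members had a change above 0 and the median was -0.0098. The order of the members moved as well, with Psmc5 lowest (-0.07) and Psmc4 highest (0.06) without KOFAD 5, and Psmc5 lowest (-0.08) and Psma4 highest (0.06) with GC and length offsets.

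**Figure D1:**
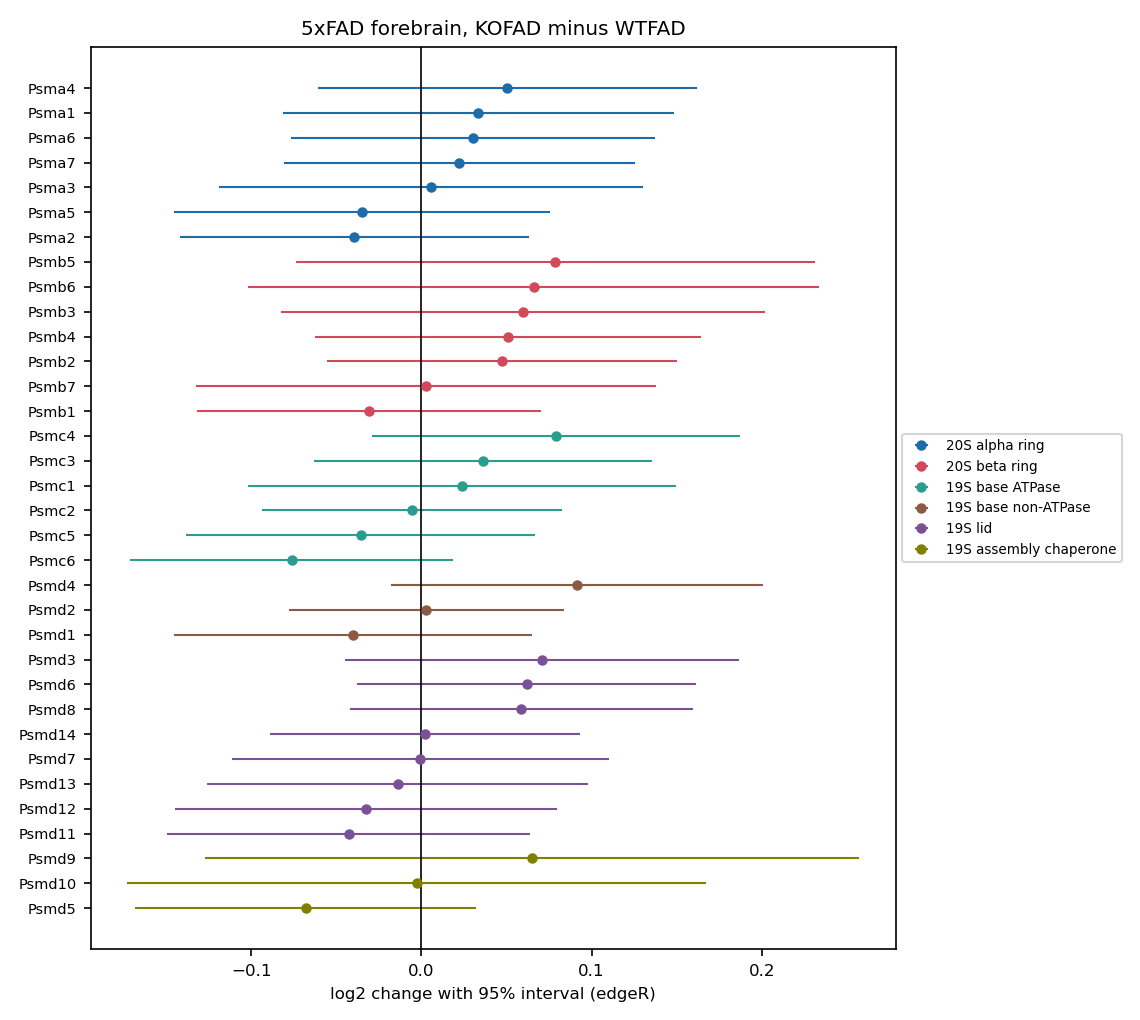
Log2 change of each tested proteasome gene in 5xFAD forebrain (KOFAD minus WTFAD, 7 and 6 libraries), with its 95% interval from edgeR on the horizontal axis and genes ordered by structural class. All 34 intervals cross the line at 0, and the points lie between -0.08 and 0.09.

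The catalytic subunits of the beta ring carry the peptide-cutting sites. Psmb5, the chymotrypsin-like subunit, had a lowest, median and highest level of 56.1, 58.0 and 79.9 CPM in KOFAD, against 53.7, 57.1 and 64.5 CPM in WTFAD. The ranges overlapped, and KOFAD 5 alone stood above all WTFAD libraries. Its log2 change was 0.08 (95% interval -0.07 to 0.23, adjusted p = 0.813 by edgeR's quasi-likelihood test), and 0.0054 without KOFAD 5. Psmb6, the caspase-like subunit, had 52.5, 59.6 and 81.9 CPM in KOFAD, against 54.1, 58.4 and 62.6 CPM in WTFAD, again with overlap. The change was 0.07 (-0.10 to 0.23), and -0.016 without KOFAD 5. Psmb7, the trypsin-like subunit, had 51.3, 58.4 and 64.9 CPM in KOFAD, against 52.6, 57.4 and 63.7 CPM in WTFAD, and the group ranges nearly coincided. Its change was 0.0025 (-0.13 to 0.14), and -0.015 without KOFAD 5. Of the structural beta subunits, Psmb1 had the lowest change of the ring, with 95.7, 105 and 109.7 CPM in KOFAD, against 96.8, 106 and 111 CPM in WTFAD (log2 change -0.03, -0.13 to 0.07). The remaining Psmb2, Psmb3 and Psmb4 had changes from 0.05 to 0.06, and 0 of the 7 tested beta genes were called.

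**Figure D2:**
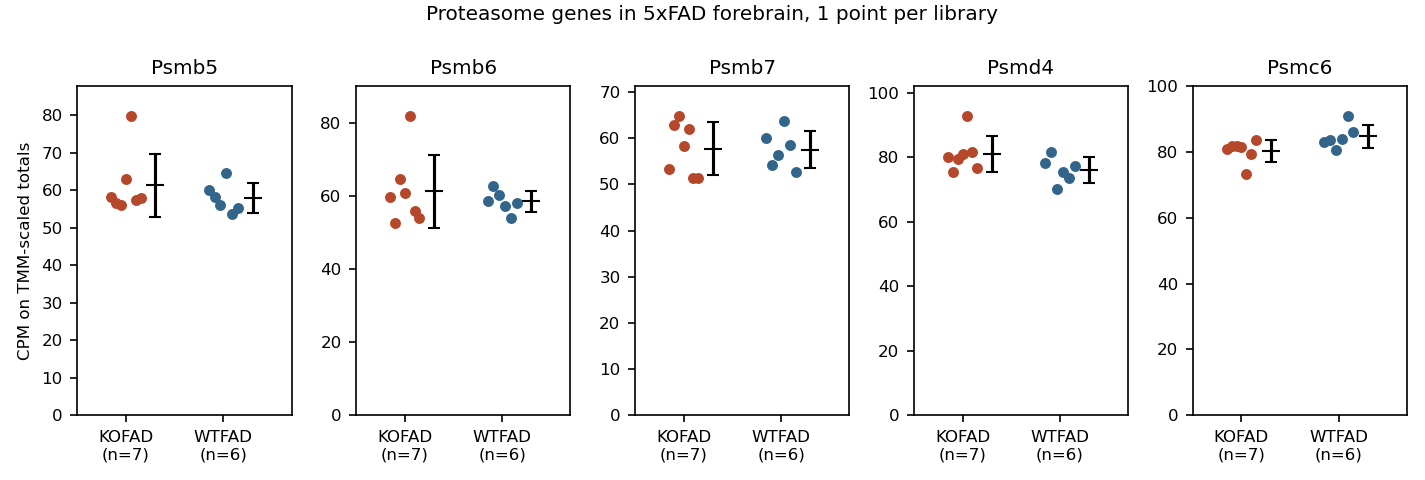
Level of the catalytic subunits Psmb5, Psmb6 and Psmb7 and of the members with the highest (Psmd4) and lowest (Psmc6) bulk change over all 13 libraries, in CPM on TMM-scaled totals, 1 point per library with the mean and SD beside it. KOFAD (7 libraries) stands left of WTFAD (6), the ranges overlap in every panel, and the extreme KOFAD point is KOFAD 5 in all panels except that of Psmb7.

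The alpha ring forms the gate of the core. Psma4 had the highest change of the 7 tested alpha genes, with 54.1, 57.1 and 65.2 CPM as lowest, median and highest level in KOFAD, against 52.2, 56.3 and 59.4 CPM in WTFAD. Its log2 change was 0.05 (-0.06 to 0.16), and 0.020 without KOFAD 5. Psma2 had the lowest, with 72.2, 78.5 and 87.6 CPM in KOFAD, against 78.0, 81.2 and 83.8 CPM in WTFAD (-0.04, -0.14 to 0.06). The groups overlapped in both genes, and for Psma2 the KOFAD range enclosed the WTFAD range. The other alpha genes, Psma1, Psma3, Psma5, Psma6 and Psma7, lay between them, and 0 of 7 were called.

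The ATPases of the base unfold the substrate and thread it into the core. Psmc4 had 69.1, 76.0 and 82.0 CPM as lowest, median and highest level in KOFAD, against 66.5, 71.1 and 78.9 CPM in WTFAD. Its log2 change of 0.08 (-0.03 to 0.19) was the highest of the 6 ATPases. Psmc6, whose promoter stretch is printed above, had the lowest change of all members over the 13 libraries, with 73.3, 81.5 and 83.7 CPM in KOFAD, against 80.5, 83.8 and 91.0 CPM in WTFAD. Its log2 change was -0.08 (-0.17 to 0.02, adjusted p = 0.704 by edgeR's quasi-likelihood test), -0.055 without KOFAD 5, its lowest library, and -0.0088 with GC and length offsets. Psmc1, Psmc2, Psmc3 and Psmc5 lay between -0.04 and 0.04. The 6 ATPases therefore lay on both sides of 0, 3 above and 3 below.

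Among the non-ATPase subunits of the base, Psmd4 is a ubiquitin receptor, and Psmd1 and Psmd2 are scaffold subunits. Psmd4 had 75.5, 80.0 and 92.8 CPM as lowest, median and highest level in KOFAD, against 70.1, 76.3 and 81.7 CPM in WTFAD. Its log2 change was 0.09 (-0.02 to 0.20), and 0.057 without KOFAD 5. Psmd1 had 122.8, 133.7 and 146.3 CPM in KOFAD, against 128.0, 132.6 and 154.0 CPM in WTFAD (-0.04, -0.15 to 0.06, and -0.00094 without WTFAD 5). The groups overlapped in both genes. Psmd2 had a change of 0.0030, with an interval of -0.08 to 0.08 that was the narrowest among the members.

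The lid holds the scaffold that positions Psmd14, the deubiquitinase that removes ubiquitin from the substrate. Psmd3 had the highest change of the 8 lid genes, with 118.6, 123.6 and 148.6 CPM as lowest, median and highest level in KOFAD, against 106.8, 121.5 and 131.0 CPM in WTFAD (log2 change 0.07, -0.05 to 0.19, and 0.030 without KOFAD 5). Psmd11 had the lowest, with 50.8, 57.6 and 63.4 CPM in KOFAD, against 58.3, 60.2 and 61.2 CPM in WTFAD (-0.04, -0.15 to 0.06). The KOFAD libraries spread on both sides of the WTFAD range of Psmd11. Psmd14 itself had a change of 0.0021 (-0.09 to 0.09), and Psmd6, Psmd7, Psmd8, Psmd12 and Psmd13 lay between the extremes, so that 4 lid genes lay above 0 and 4 below. The chaperones Psmd5, Psmd9 and Psmd10 help to assemble the base and are not part of the finished particle. Psmd9 had 19.4, 23.5 and 32.1 CPM in KOFAD, against 20.9, 23.5 and 26.5 CPM in WTFAD (0.06, -0.13 to 0.26, and -0.012 without KOFAD 5). Psmd5 had 60.4, 61.7 and 63.1 CPM in KOFAD, against 60.7, 63.9 and 71.7 CPM in WTFAD (-0.07, -0.17 to 0.03). The medians of Psmd9 were alike in the 2 groups, and the KOFAD libraries of Psmd5 lay near the lower end of the WTFAD range. Psmd10, the last of the 3, had a change of -0.0027.

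The summed level of the 36 genes varied little between the bulk libraries other than KOFAD 5. It was 0.263%, 0.269% and 0.299% of counts as lowest, median and highest value in KOFAD, against 0.265%, 0.268% and 0.272% in WTFAD. The mean was 0.274 ± 0.0128% in KOFAD and 0.268 ± 0.00252% in WTFAD (SD, n = 7 and 6), a ratio of 1.02. KOFAD 5 was the highest of the 13 libraries, and without it the ratio was 1.01. The difference of the means was smaller than the SD of KOFAD, which includes KOFAD 5, and larger than the SD of WTFAD. KOFAD 5 was also the highest of the 13 libraries for 19 of the 34 tested members, Psmb5, Psmb6, Psmd4 and Psmd3 among them, and the lowest for 3, Psmc6, Psmd1 and Psmd5. Across the 34 members the log2 change had a Spearman correlation of 0.583 with GC content and of -0.344 with exonic length, given as a description of genes that share the same libraries. With offsets for GC content and length in the fit, the log2 change was 0.0088 for Psmb5, -0.0088 for Psmc6 and 0.011 for Psmd3.

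The level and the variation of the members differed among themselves. Per kilobase of exon, mean bulk levels ran from 3.29 CPM for the chaperone gene Psmd9 to 101 CPM for the ATPase gene Psmc5, with a median of 24.98 CPM over the 34 members. The other chaperone genes, Psmd5 with 8.74 CPM and Psmd10 with 8.85 CPM per kilobase, followed Psmd9 at the low end. The coefficient of variation between libraries had a median of 6.65% in KOFAD (1.60% for Psmd5 to 16.6% for Psmd9) and of 5.17% in WTFAD (1.84% for Psmd11 to 10.2% for Psma3). Exons of 9 members share bases with another annotated gene, 8 of them with a gene on the opposite strand, and the strand setting of the counting is not given in the sources used here. The longest shared stretch, 1849 bases, was that of Psmd9 with the lincRNA Gm26745, so the level of Psmd9 is uncertain.

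The same bulk libraries held less RNA of microglia markers. All 21 microglia markers were lower in KOFAD. Of them, 14 were called lower by edgeR's quasi-likelihood test, against 0.277% of all 16956 genes tested. The median log2 change of the 21 was -0.63. Their summed level was 1634 to 1996 CPM in KOFAD, against 2089 to 2280 CPM in WTFAD. The list, and so its summed level, includes Cx3cr1, whose own locus was altered to hold the recombinase in every KOFAD library. The part of that allele in the value of Cx3cr1 was not tested. In sorted microglia, 4 of the 21 markers had a higher CPM in cKO, against 60.3% of 6739 genes. The summed level of the list there was 113641 CPM in cKO and 133051 CPM in control. In bulk tissue, fewer cells of a type, less RNA per cell and lower RNA of the marker genes themselves cannot be told apart. Of 7 monocyte markers 3 were tested, with a median log2 change of -0.80, 2 of them at an unadjusted p under 0.05 and 0 called, and the summed level of the list was 13.05 to 20.2 CPM in KOFAD, against 19.2 to 26.1 CPM in WTFAD. No marker of neurons, astrocytes, oligodendrocytes or endothelial cells was called, and 6 of 8 astrocyte and 6 of 8 oligodendrocyte markers had a change below 0. The bulk table sums the proteasome RNA of all these cell types, and the part of these marker differences in the members' values was not tested.

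Sorted microglia covered the targeted cells themselves. Members were compared as UMIs summed over microglia-like cells, 7471 in the cKO library and 6224 in the control library, given as CPM. Each genotype was 1 pooled library, so the ratios carry no p-value, and their 95% intervals cover counting error only, not the spread between mice. Each cluster called microglia-like had all 21 microglia markers detected in at least 25% of its cells. So did a shallow cluster of 1369 cKO and 4 control cells, which was left out for its low UMIs per cell. A cluster led by Ttr, also left out, had 20 of them detected. The libraries filled different clusters. The cluster led by Lyz2, Tnfaip2 and Blvrb held 6993 cKO and 313 control cells, and the cluster led by Fos, Fosb and Calr held 190 cKO and 5826 control cells. Markers of neurons (4.12 CPM summed in cKO, 2.20 CPM in control), border macrophages (14.8 and 5.83 CPM), monocytes (5.32 and 9.13 CPM) and lymphocytes (0.210 and 0.110 CPM) were near 0 in these cells. The marker lists of astrocytes (179.9 CPM in cKO, 165 CPM in control), oligodendrocytes (118 and 116 CPM) and endothelial cells (57.4 and 64.8 CPM) were not, and their part in the ratios was not tested.

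In microglia no proteasome gene differed by 1.5-fold, and most stood slightly higher in the cKO library. Of the 36 members, 34 reached 20 CPM in at least 1 library. Psma8 stood at 5.90 CPM in cKO and 5.83 CPM in control, and Psmb11 had 5 UMIs in cKO and 2 in control. Past 1.5-fold were 0 of the 34, against 3.15% of 6739 genes at this level, 1.80% higher and 1.35% lower in cKO. The CPM was higher in cKO for 28 of the 34 (82.4%), against 4061 of the 6739 genes (60.3%). The median log2 ratio was 0.09 for the members and 0.05 for all genes. With median-of-ratios scaling, which puts the median of all genes at -0.011, 21 of the 34 were higher, with a median of 0.04, against 3211 of all genes (47.6%), and all genes past 1.5-fold numbered 95 higher and 114 lower, against 121 higher and 91 lower with total UMIs. Over all filtered cells, which add the 1369 cKO and 4 control cells of a shallow unnamed cluster and those of a small one led by Ttr, 25 of the 34 were higher, against 61.6% of 6769 genes, and the median was 0.06.

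**Figure D3:**
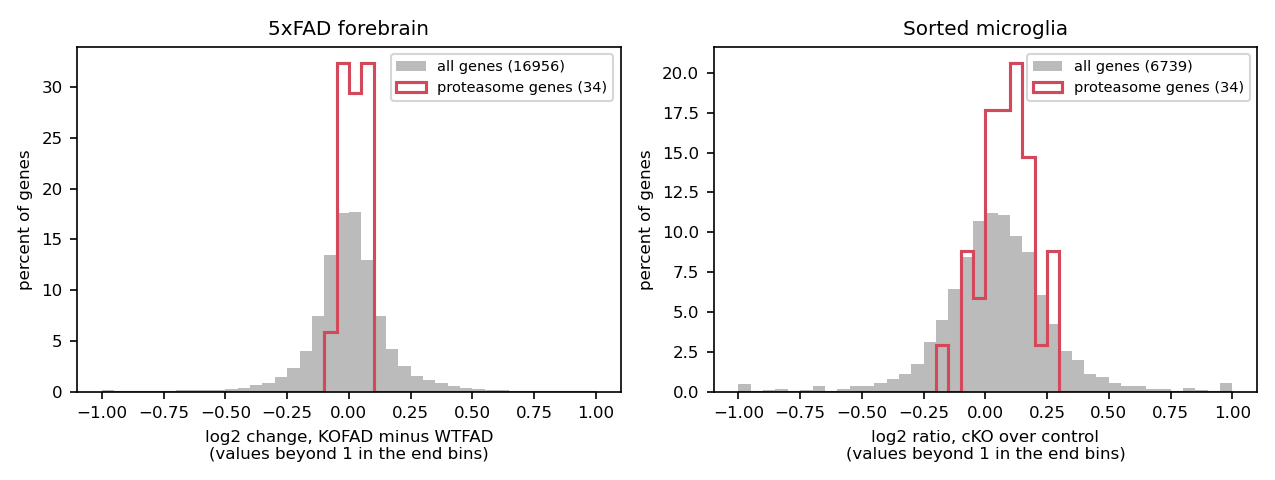
Distribution of log2 change in 5xFAD forebrain (KOFAD minus WTFAD) and of log2 ratio in sorted microglia (cKO over control), as percent of genes in bins of 0.05, for the 34 proteasome genes (red outline) and all genes measured (grey). The proteasome genes lie within 0.1 of 0 in forebrain, and in microglia mostly to the right of 0, between -0.16 and 0.30.

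The summed level of the members in microglia-like cells was 0.364% of UMIs in cKO (95% Clopper-Pearson interval 0.363% to 0.366%) and 0.345% in control (0.341% to 0.349%), a ratio of 1.06 (1.04 to 1.07). The ratio was 1.09 (1.07 to 1.11) for the 20S core and 1.02 (0.999 to 1.04) for the 19S particle without its chaperones. With median-of-ratios scaling these were 1.05 (1.03 to 1.06) and 0.979 (0.961 to 0.996). Over all filtered cells they were 1.06 (1.04 to 1.07) and 0.996 (0.979 to 1.01). The libraries differ in depth, and the ratio of all members varied with the cells taken. In cells with at least 1000 genes, 7226 in cKO and 1343 in control, it was 1.05 (1.03 to 1.07), with 24 of 34 members higher against 53.4% of 6799 genes, and the beta ring stood at 1.12 (1.08 to 1.17). Among cells of at least 2000 and under 4000 UMIs, which both libraries contain, the share was 0.347% in 1695 cKO cells (0.342% to 0.352%) and 0.348% in 497 control cells (0.338% to 0.359%), a ratio of 0.996 (0.963 to 1.03), and the core's ratio was 1.01 (0.964 to 1.06). This band was chosen after the shares by depth had been seen. It holds the shallower cells of the cKO library and the deeper cells of the control library, with a median of 3473 UMIs in cKO and 2404 in control, so depth was closer in it but not equal. Within it 18 of 34 members were higher in cKO, against 56.8% of 6974 genes. In cells of at least 1000 and under 2000 UMIs the share was lower in cKO, 0.274% in 230 cells (0.257% to 0.292%), against 0.346% in 5132 control cells (0.342% to 0.350%). Thinning every cell to 1000 UMIs, which left 7411 cKO and 5637 control cells, gave a ratio of 1.04 (1.02 to 1.05) for all members. The beta ring then stood at 1.06 (1.02 to 1.10).

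**Figure D4:**
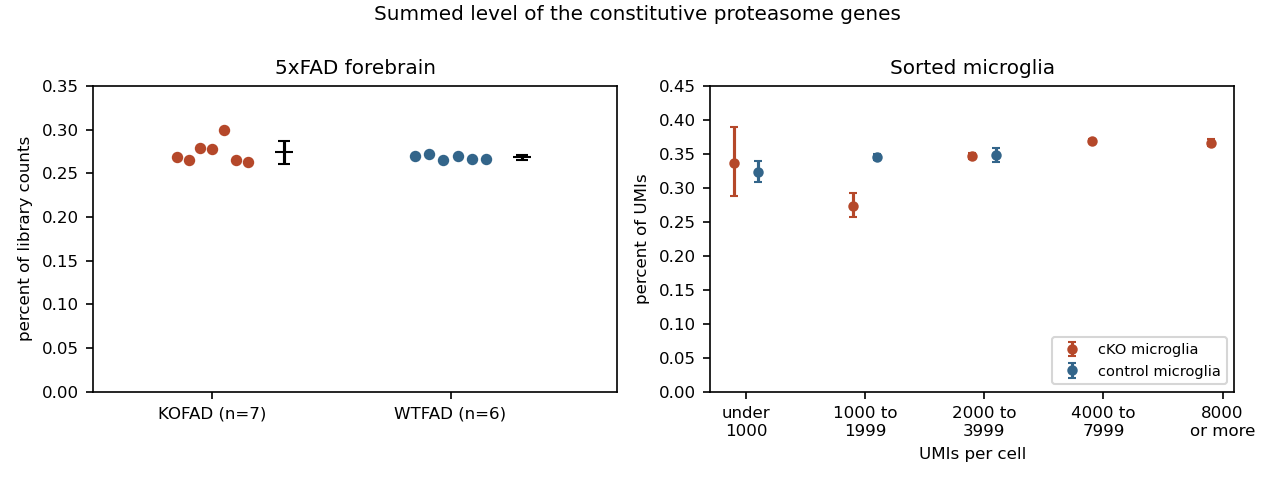
Summed level of the 36 proteasome genes, left as percent of counts per bulk library (points) with mean and SD for KOFAD (7) and WTFAD (6), right as percent of UMIs in microglia-like cells by UMIs per cell, with 95% Clopper-Pearson intervals, cKO left of control. KOFAD 5 is the highest bulk point at 0.299%, and in cells of at least 2000 and under 4000 UMIs the microglia libraries stand at 0.347% (cKO) and 0.348% (control), while no control point is drawn from 4000 UMIs upward, where that library held too few cells.

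Within the microglia, the beta ring was the class in which all 7 measured genes had a higher CPM in cKO with a 95% interval above 1, against 3 of 7 in the alpha ring, 13 of all 34 members and 28.1% of the 6739 genes. With median-of-ratios scaling all 7 were still higher but 4 intervals lay above 1, against 19.2% of all genes. After thinning to 1000 UMIs per cell all 7 were higher and 1 interval lay above 1, against 1402 of 6785 genes. In cells of at least 2000 and under 4000 UMIs 4 of 7 were higher and 0 intervals lay above 1, against 11.9% of 6974 genes. Psmb5 stood at 129 CPM in cKO (126 to 133) and 115 CPM in control (108 to 122), a ratio of 1.12 (1.05 to 1.20), and at 1.09 in that band. Psmb6 stood at 158 CPM in cKO (154 to 162) and 142 CPM in control (135 to 150.3), a ratio of 1.11 (1.04 to 1.18), and at 0.949 in that band. These catalytic subunits thus had like ratios over all cells and lay on either side of 1 in the band. Psmb7 stood at 76.0 CPM in cKO (73.3 to 78.8) and 68.4 CPM in control (63.2 to 74.0), a ratio of 1.11 (1.02 to 1.21). Psmb2, a structural subunit, had the highest ratio of the ring, 121 CPM in cKO (117 to 124) and 99.5 CPM in control (93.1 to 106), or 1.21 (1.13 to 1.30), with 1.05 in the band. Psmb1 had the lowest, 168 CPM in cKO (164 to 172) and 156 CPM in control (148 to 164), or 1.08 (1.02 to 1.14), with 0.953 in the band. Psmb3 and Psmb4 lay between. Summed, the ring had a ratio of 1.12 (1.09 to 1.15) over all microglia-like cells and of 1.01 (0.948 to 1.09) in the band.

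**Figure D5:**
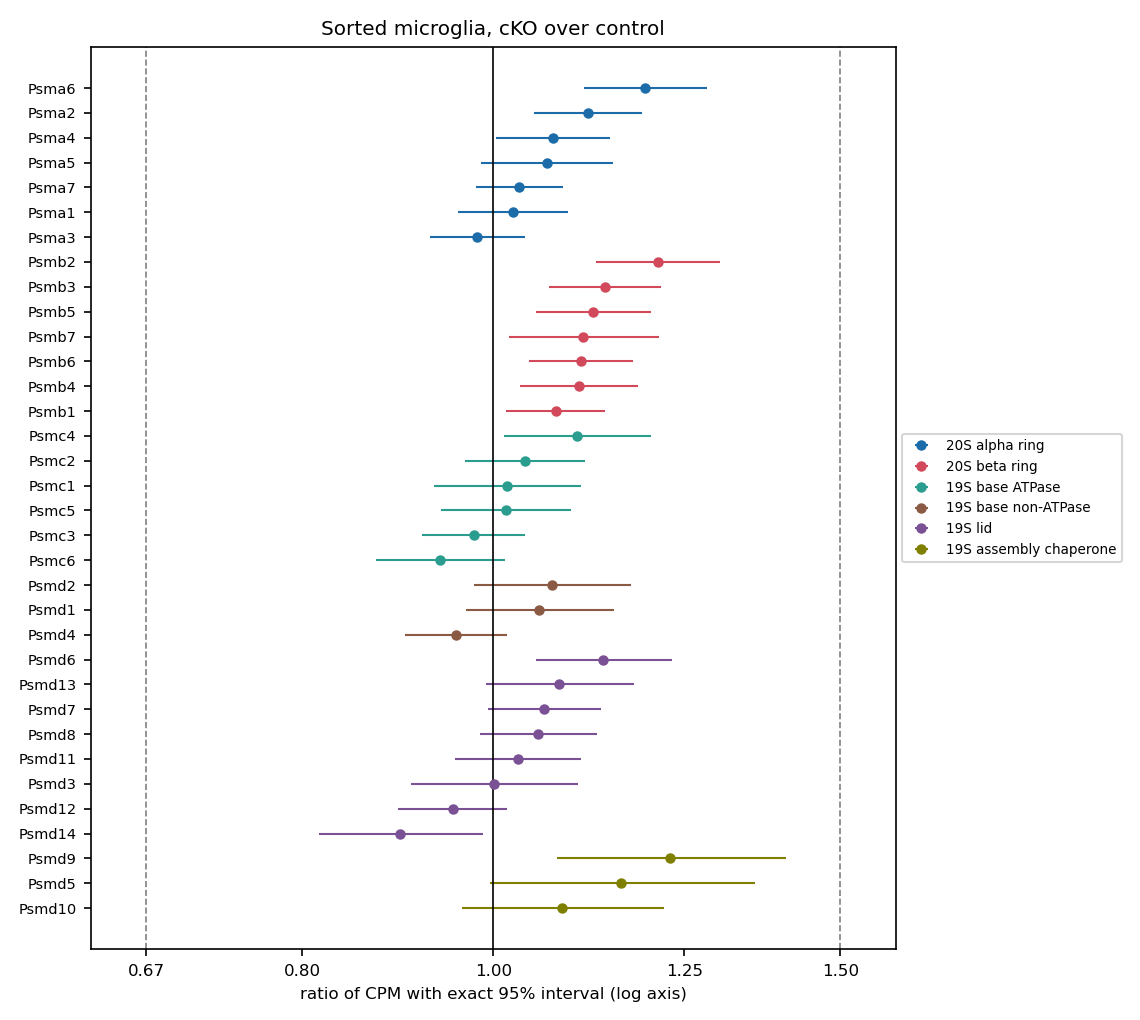
Ratio of CPM in sorted microglia (cKO over control, 1 pooled library each) for the 34 measured proteasome genes, on a log axis with exact 95% intervals that cover counting error only. The dashed lines mark 1.5-fold in either direction and no point reaches them. Points of the beta ring all lie right of 1, while the 19S classes lie on both sides.

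The alpha ring and the 19S classes were mixed. In the alpha ring, Psma6 stood at 120.0 CPM in cKO (117 to 124) and 100.5 CPM in control (94.1 to 107), a ratio of 1.19 (1.11 to 1.28), and Psma3 at 168 CPM in cKO (164 to 172) and 171 CPM in control (163 to 179.7), a ratio of 0.981 (0.928 to 1.04). Of 7 measured alpha genes 6 were higher in cKO, 4 with median-of-ratios scaling, against 60.3% and 47.6% of all genes. Among the ATPases, Psmc4 stood at 78.9 CPM in cKO (76.1 to 81.8) and 71.5 CPM in control (66.1 to 77.2), a ratio of 1.10 (1.01 to 1.20). Psmc6, the lowest member over the 13 bulk libraries, was also the lowest ATPase here, at 88.3 CPM in cKO (85.4 to 91.3) and 94.0 CPM in control (87.8 to 100.5), a ratio of 0.940 (0.872 to 1.01). The scaffold gene Psmd2 stood at 67.9 CPM in cKO (65.3 to 70.6) and 63.4 CPM in control (58.3 to 68.8), or 1.07 (0.978 to 1.17), and the ubiquitin receptor gene Psmd4 at 144.7 CPM in cKO (141 to 149) and 151 CPM in control (143 to 159), or 0.957 (0.902 to 1.02). In cells with at least 1000 genes the ratio of Psmd4 was 1.05, and in the Lyz2-led cluster 1.26.

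In the lid, Psmd6 had the highest ratio, with 93.5 CPM in cKO (90.4 to 96.6) and 82.2 CPM in control (76.4 to 88.3), or 1.14 (1.05 to 1.23). Psmd14, the deubiquitinase gene, was the only member whose interval lay below 1, with 53.0 CPM in cKO (50.7 to 55.4) and 59.1 CPM in control (54.2 to 64.3), or 0.897 (0.815 to 0.989). Over all genes 16.4% had such an interval. With median-of-ratios scaling, 6 of the 34 members had an interval below 1, against 24.1% of all genes. Of 8 lid genes 6 were higher in cKO, against 60.3% of all 6739 genes. All 3 chaperone genes were higher, from Psmd10 with 41.3 CPM in cKO (39.3 to 43.4) and 38.1 CPM in control (34.2 to 42.3), or 1.08 (0.964 to 1.22), to Psmd9 with 36.0 CPM in cKO (34.1 to 38.0) and 29.3 CPM in control (25.9 to 33.0), or 1.23 (1.08 to 1.41), the highest ratio of all members over these cells. In cells of at least 2000 and under 4000 UMIs the ratio turned below 1 for Psmd10 (0.804), Psmc4 (0.954) and Psmd2 (0.835) and above 1 for Psma3 (1.01). Of the 3 chaperone genes 2 were higher there, and their summed ratio was 1.03 (0.841 to 1.26). Across the 34 members, the microglia log2 ratio and the bulk log2 change had a Spearman correlation of 0.233, given as a description.

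Of the clusters, 2 held at least 100 cells of each library, and in these the ratio of summed shares was 1.15 (Lyz2-led) and 1.11 (Fos-led). In the cluster led by Lyz2 the summed share was 0.362% of UMIs in cKO (0.360% to 0.364%) and 0.316% in control (0.303% to 0.330%), with 27 of 34 members higher, against 45.4% of 7059 genes. There, 4 members were past 1.5-fold, all higher in cKO, against 6.25% of 7059 genes higher by that fold, 6.83% lower and 13.1% in either direction. They were Psmb3 with a ratio of 1.75 (1.34 to 2.33), Psmd3 with 1.71 (1.13 to 2.70), Psmb2 with 1.56 (1.19 to 2.08) and Psmd7 with 1.50 (1.16 to 1.98). These ratios rest on 23 to 58 UMIs per gene in the 313 control cells, whose median of 1961 UMIs compares with 4897 in the cKO cells. In the cluster led by Fos the share was 0.386% in 190 cKO cells (0.370% to 0.404%) and 0.347% in 5826 control cells (0.343% to 0.351%). In it 24 of 34 members were higher in cKO, against 3035 of 6749 genes. Past 1.5-fold were 0 members, against 344 of the 6749 genes higher in cKO and 781 lower. In the cluster led by Ifit3 and Ifitm3, genes of the interferon response, the share was 0.381% in 124 cKO cells (0.366% to 0.396%) and 0.370% in 63 control cells (0.334% to 0.410%). Between clusters of the cKO library the share varied more than between genotypes. It was 0.166% in 1369 shallow cells that were left unnamed (0.160% to 0.173%), 0.447% in 55 cells led by Top2a and Mki67, genes of proliferation (0.426% to 0.470%), 0.461% in 109 cells led by Dbi and mt-Atp6 (0.432% to 0.491%) and 0.518% in 34 unnamed cells led by Ttr (0.482% to 0.557%). The 15 control cells of the Ttr-led cluster had 0.616% (0.531% to 0.711%), above the cKO cells, and the 4 control cells of the shallow cluster 0.231% (0.119% to 0.403%).

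The other genes of the pathway were read in the same fits. In bulk, 0 members of the lists of immunoproteasome subunits (3 genes), proteasome activators and inhibitor (5), assembly and associated proteins (13), the NRF1 pathway (9), ubiquitin and its E1 enzymes (6) and ubiquitin shuttle factors (9) were called by edgeR's quasi-likelihood test. Nfe2l1, which encodes NRF1, had 343 to 401 CPM in KOFAD (median 359) and 316 to 383 CPM in WTFAD (median 354), a log2 change of 0.04 (-0.07 to 0.14), which was 0.0057 without WTFAD 5 and -0.015 with GC and length offsets. Pomp, the chaperone that matures the core, had a change of -0.03 (-0.16 to 0.10). The immunoproteasome genes, which replace the catalytic subunits under interferon, had changes of -0.19 (-0.57 to 0.20) for Psmb8, 0.10 (-0.23 to 0.43) for Psmb9 and 0.09 (-0.10 to 0.28) for Psmb10. Psmb8 had 1.79, 2.11 and 4.09 CPM as lowest, median and highest level in KOFAD, against 2.46, 2.91 and 3.23 CPM in WTFAD, and KOFAD 5 was the highest. Without KOFAD 5 the change of Psmb8 was -0.33. Of the genes for the 11S activator, Psme1 had -0.05 (-0.18 to 0.08) and Psme2 0.18 (-0.19 to 0.54).

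In microglia, genes past 1.5-fold in these lists were Adrm1, 1 of 13 measured assembly genes, and Sqstm1, 1 of 7 measured shuttle genes. The other lists had 0 of 3 immunoproteasome, 4 activator and inhibitor, 8 NRF1 pathway and 6 ubiquitin genes. Over all 6739 genes 3.15% were past 1.5-fold, 1.80% higher and 1.35% lower in cKO. Adrm1, a ubiquitin receptor of the 19S base outside the naming rule, stood at 33.8 CPM in cKO (32.0 to 35.7) and 22.0 CPM in control (19.1 to 25.3), a ratio of 1.53 (1.32 to 1.79), with 1.94 in cells of at least 2000 and under 4000 UMIs and 1.48 with median-of-ratios scaling. Sqstm1, the autophagy receptor p62, stood at 154 CPM in cKO (150.3 to 158) and 101 CPM in control (94.4 to 108), a ratio of 1.53 (1.43 to 1.64), with 1.30 in that band and 1.47 with that scaling. In bulk these genes had log2 changes of 0.08 (-0.09 to 0.24) and 0.04 (-0.06 to 0.14). Both were therefore higher in the cKO library under every setting run, and their bulk ranges overlapped between the groups.

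Nfe2l1 stood at 54.8 CPM in cKO (52.5 to 57.2) and 66.0 CPM in control (60.8 to 71.5), a ratio of 0.830 (0.758 to 0.911), with 0.668 in the band. Over all microglia-like cells, the interval of Nfe2l1 lay below 1, as it did for 16.4% of 6739 genes. Of the subunit genes 28 of 34 were slightly higher, against 60.3% of those genes. In the band 18 of 34 were higher, against 56.8% of 6974 genes. Processing of NRF1 to its active form was not measured, and its part in the subunit values was not tested. Psmb8 stood at 248 CPM in cKO (243 to 253) and 246 CPM in control (236 to 256), a ratio of 1.01 (0.963 to 1.06), Psmb9 at 104 CPM in cKO (101 to 108) and 89.8 CPM in control (83.7 to 96.2), or 1.16 (1.08 to 1.25), and Psmb10 at a ratio of 1.05 (0.981 to 1.12). Interferon-inducible subunit genes thus had ratios in the range of the constitutive ones. Pomp had a ratio of 1.04 (0.994 to 1.08), Psme1 of 1.04 (0.991 to 1.09) and Psme2 of 1.12 (1.05 to 1.20). Of the measured genes, 3 of 3 immunoproteasome, 4 of 4 activator and inhibitor, 10 of 13 assembly, 3 of 8 NRF1 pathway, 5 of 6 ubiquitin and 4 of 7 shuttle genes had a higher CPM in cKO. Over all genes at this level, 4061 of 6739 (60.3%) did.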

How the data were processed

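The members and all gene lists were chosen with earlier results of these data known. The bulk table holds read counts per Ensembl gene, deposited without normalization. Per the submitters' processing notes, reads were aligned to mm10 with HISAT2 2.0.5 and counted by featureCounts 1.5.0-p3, and per the labels' protocols the RNA was poly-A selected. The single-cell matrices hold UMI counts per gene and barcode, deposited by the authors, from 10x 3' libraries per the labels. Per the file headers they came from Cell Ranger 6.1.0.

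For the bulk libraries, edgeR 4.0.16 under R 4.3.3 was used with filterByExpr, TMM factors and a robust quasi-likelihood test of genotype (two-sided, Benjamini-Hochberg adjustment over 16956 genes, threshold 0.05), checked on simulated data. DESeq2 1.42.0 was an alternative. The common biological coefficient of variation came to 10.0%. Within groups, every pair of libraries differed by a chi-square of at least 2.75 for each degree of freedom, so none repeated another.

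Cells entered with 500 or more genes and no more than 10% of UMIs from mitochondrial genes (8874 cKO, 6243 control) and were clustered with scanpy 1.11.5 (2000 variable genes, 30 components, 15 neighbours, Leiden resolution 0.5). Clusters were called microglia-like from at least 3 fixed markers. A cluster at 0.248 of the library's median UMIs and one led by Ttr and Enpp2, left out after its leading genes were seen, stayed unnamed. No doublet caller was run, so doublets remain. Intervals are exact at 95%.

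Named with values were the catalytic subunits, the highest and lowest member of each structural class, pathway genes called or past 1.5-fold, and Nfe2l1, Pomp, Psmb8, Psmb9, Psmb10, Psme1 and Psme2. Genes named for clusters fall outside this rule and were chosen after their values were seen. Gene positions, exonic length and GC content came from GENCODE M21 on GRCm38 (mm10). Alternatives changed scaling, filters, tests, cells, depth and libraries.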

Additional observations from a re-analysis of the deposited data

Results flagged for a closer look

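For each of the 34 tested proteasome genes and for the summed share, the most extreme bulk library of each group was set against the nearest of the others. A gap that took more of the group's range than Dixon's critical value at the 95% level was taken as far from the rest. Chance marks about 1 in 20 groups. Of the 70 groups examined, 9 had such a library, and in 8 of them it was KOFAD 5. KOFAD 5 stood far above the other KOFAD libraries for Psmb5 (79.9 CPM), Psmb6 (81.9 CPM), Psma4 (65.2 CPM), Psmc5 (163 CPM), Psmd3 (148.6 CPM), Psmd4 (92.8 CPM) and Psmd7 (89.9 CPM), and far below them for Psmc6 (73.3 CPM). In WTFAD, replicate 5 stood far above the others for Psmd14 (75.3 CPM). These are also the libraries whose gene deviations correlated most with GC content, at 0.517 for KOFAD 5 and -0.483 for WTFAD 5. The part of GC content in these values was not tested beyond the offsets given under the processing.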

How the results depend on the processing

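The bulk call of 0 members held under every alternative run, namely size factors, upper quartiles, no count filter, DESeq2, GC and length offsets, each library left out and Psmc3ip added. Leaving out 1 library gave a median log2 change of the members from -0.0098 to 0.033 and a ratio of summed shares from 1.01 to 1.03. Genes called over the whole table moved more, to 23 higher and 62 lower with DESeq2, and to 3 to 23 higher and 30 to 50 lower with 1 library left out.

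Whether replicate numbers pair the samples was not settled. Correlations of same-numbered deviations ran from -0.322 to 0.171, and 2 of 6 samples correlated best with their own number. The lowest was that of KOFAD 5 and WTFAD 5, whose deviations correlated with GC content in opposite directions. Such shifts of whole libraries enter these values, so they cannot decide the pairing. With the replicate block, 0 members were called, their median was 0.033, and 1 gene higher and 19 lower were called overall.

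Directions of uncalled genes turned with GC and length offsets for Psmd11 (0.019), Psma2 (0.015), Nfe2l1 (-0.015) and Sqstm1 (-0.017). With the offsets and the replicate block together they turned for Psmb5 (-0.0042), Psmd11 (0.0063), Psma2 (0.038), Nfe2l1 (-0.015) and Sqstm1 (-0.012). The cause was not tested. With 1 library left out the ranges crossed 0 for Psmb6 (-0.016 to 0.10), Psmb7 (-0.023 to 0.034), Psmd9 (-0.012 to 0.12), Pomp (-0.086 to 0.0025) and Sqstm1 (-0.00033 to 0.060).

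In microglia the median log2 ratio of members and the ratio of summed shares were 0.062 and 1.03 over all filtered cells, 0.062 and 1.03 over all barcodes, 0.094 and 1.05 in cells with at least 1000 genes, 0.057 and 1.04 after thinning, 0.039 and 1.02 with median-of-ratios scaling, 0.070 and 1.04 without the top genes in the total, 0.19 and 1.15 in the Lyz2-led cluster, 0.14 and 1.11 in the Fos-led cluster, and 0.015 and 0.996 in cells of at least 2000 and under 4000 UMIs, an alternative chosen after seeing the data. Members past 1.5-fold numbered 4 in the Lyz2-led cluster and 0 otherwise. Without shared barcodes, also chosen after seeing the data, the ratio was 1.06. With 1 library per genotype the counting intervals leave out the spread between mice, and the control library's depth limits members near 20 CPM.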
